A study of Drosophila melanogaster with 39 samples.

Results

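The comparison of shocked Mid with naive High fly heads covered 15 libraries, 8 of shocked Mid and 7 of naive High heads, of the 37 libraries with counts in the whole study. Heads were assigned to the 2 groups by the sample titles and not by expression values. The 2 groups were chosen for comparison with earlier results of these data known. Each library was polyadenylated RNA from 1 head, although the library protocol in the labels also speaks of nuclear RNA, and whether nuclei were isolated is not settled by the labels. All flies were adult males (*Drosophila melanogaster*), and their genotype, Cantonized w1118, was common to both groups. Shocked flies received electric shocks of 60 V for 5 min, and Mid and High are the submitters' classes of place preference, scored in an assay at 1.5 h before freezing at 2.5 h. Naive flies are the unshocked controls by their titles, although the labels repeat the shock protocol for them. Shocked Mid and naive High heads therefore differed in shock and in preference class together, and the effects of these factors cannot be told apart in this contrast. The 7 naive Mid heads, which share the class with the shocked Mid heads, were a separate naive group. The question was whether genes that set shocked Mid heads apart from naive Mid heads also differed from naive High heads. Each head was a separate fly, so p-values measure the spread between single flies.

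A fly head holds the brain and retina together with the antennae, muscle, blood cells and the head fat body, the tissue that corresponds to liver and adipose tissue in mammals. Serine and one-carbon metabolism feeds carbon units, carried on folate, into purine and methionine synthesis, and several of its enzymes are transcriptional targets of the amino acid and mitochondrial stress factor ATF4, called crc in flies. Bomanins are short secreted peptides induced through the Toll pathway, and the fat body is their main source.

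Total counts were 6.52 to 10.3 M (megacounts) per shocked Mid library and 6.06 to 11.3 M per naive High library. All 5 fixed neuronal, glial, photoreceptor, fat body, haemocyte and muscle markers were detected, which matches the labelled tissue. The summed level of the 5 fat body markers (Lsp2, Rfabg, Lsd-1, bmm and CG3523, the fatty acid synthase gene) was 2550, 4620 and 10700 CPM (counts scaled to a library total of 1 M; lowest, median and highest) in shocked Mid heads, against 2040, 2960 and 5280 CPM in naive High heads. The 6 antennal markers summed to 312, 679 and 1030 CPM in shocked Mid heads, against 174, 256 and 895 CPM in naive High heads. The 5 neuronal markers summed to 3160, 3430 and 3740 CPM in shocked Mid heads, against 3060, 3740 and 4700 CPM in naive High heads. The groups overlapped in all 3 sums. In whole heads, more cells of a type and more RNA per cell cannot be told apart.

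Of 10272 genes tested, 1 passed an adjusted p of 0.05 in edgeR's quasi-likelihood test, which is 0.00974% of those tested, and none fell. It was Nmdmc, a mitochondrial enzyme that interconverts folate-bound one-carbon units (3R:9042508-9050555, minus strand, dm6). Its level was 45.6, 61.7 and 213 CPM in shocked Mid heads, against 15.8, 21.2 and 31.9 CPM in naive High heads (lowest, median and highest here and in what follows). Every shocked Mid head was above every naive High head, and the shocked Mid heads were the more spread out, with replicates 4, 5 and 6 at 126, 167 and 213 CPM. Nmdmc rose 4.16-fold, a log2 fold change of 2.06 ± 0.327 (SE), with an edgeR adjusted p of 0.00258. An exact two-sided permutation test of mean log2 CPM, run on 3 genes, gave p = 0.000155, the smallest that 6435 splits of 15 libraries allow. Groups that do not overlap fix this value, and the gene was chosen with earlier results known, so it adds no support. When only the groups compared entered the fit, the log2 fold change was 2.06 and the adjusted p was 0.1, so the gene did not pass there. The library kit named in the labels does not mark strand, and Nmdmc shares exon sequence with Mst85C on the other strand. Mst85C averaged 17.6 ± 1.97 CPM in shocked Mid heads and 17.7 ± 3.03 CPM in naive High heads (SD, n = 8 and 7), a log2 difference of -0.01 ± 0.11 (SE). Other genes named below also share exon sequence with a gene on the other strand, among them Gnmt, ade2, Vmat, Trh and Sulf1. The levels of those overlapping genes are not given here.

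The gene with the next smallest p was asparagine-synthetase, which makes asparagine from aspartate and glutamine (3L:21173118-21174973, plus strand; now AsnS). It had 99.4, 118 and 130 CPM in shocked Mid heads, against 51.4, 63.4 and 98.2 CPM in naive High heads. The groups did not overlap, with the lowest shocked head just above the highest naive head. The log2 fold change of 0.68 ± 0.137 (SE) did not pass in edgeR, with an adjusted p of 0.0774. It did pass in the alternative fits with DESeq2 (adjusted p = 0.0027) and limma voom (0.0251), and in edgeR without naive High replicate 1 (0.0352) or 5 (0.0148), the naive High heads with the highest asparagine-synthetase levels. With a fit blocked by replicate number, given in the closing section, it passed in 5 of 24 alternatives and did not pass in the rest. With single libraries left out, its edgeR adjusted p ran from 0.0148 to 0.401.

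**Figure D1:**
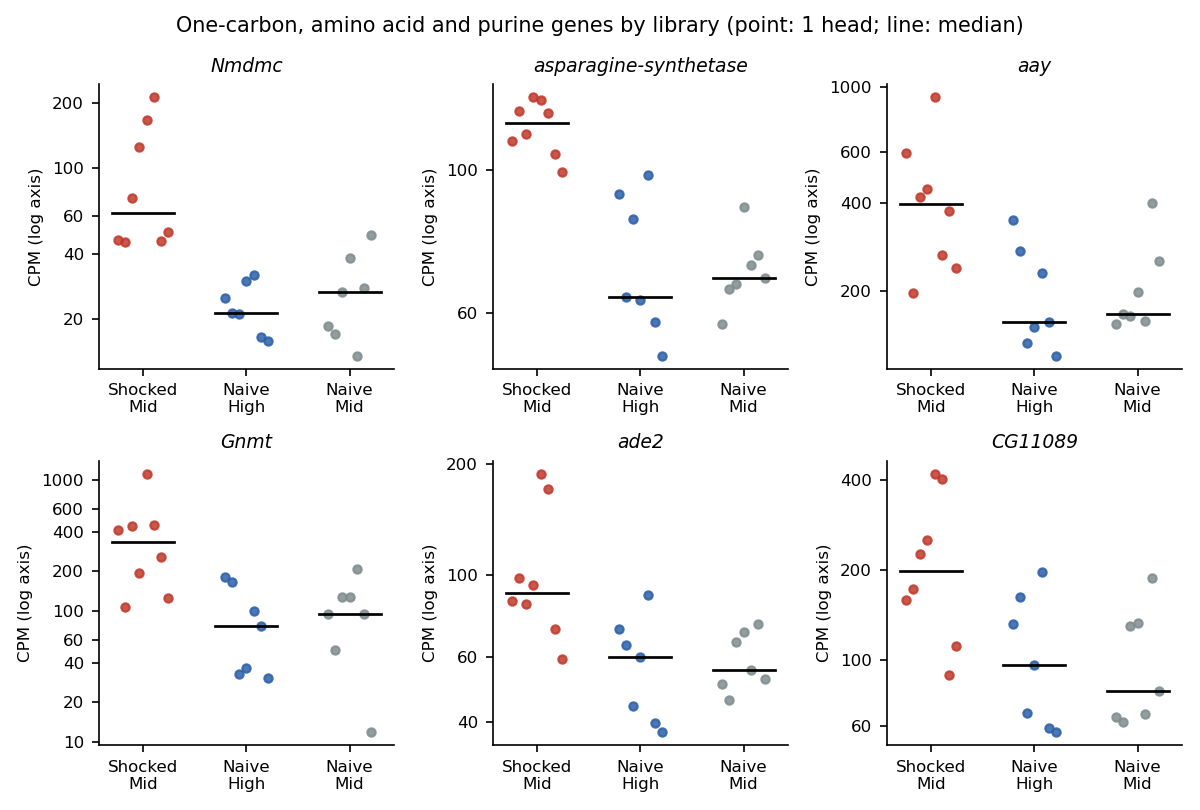
CPM on a log axis of 6 genes of one-carbon, amino acid and purine metabolism in 8 shocked Mid, 7 naive High and 7 naive Mid heads; each point is 1 head and the line is the group median. The shocked Mid heads lie above all naive High heads for Nmdmc and asparagine-synthetase, and overlap with them for aay, Gnmt, ade2 and CG11089.

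Genes of serine, one-carbon and amino acid metabolism had mostly higher values in shocked Mid heads. Of the 21 listed genes, all were tested, 18 had a positive log2 fold change, 1 passed the adjusted threshold (Nmdmc) and 10 were higher at an unadjusted p under 0.05, with 0 lower. Over all genes tested, 550 were higher at that p, 5.35% of those tested, 411 were lower, 4%, and 51.9% were positive. Single libraries moved these shares: without naive High replicate 1, 7.49% were higher and 6.78% lower at that p, without naive High replicate 5 they were 6.45% and 5.41%, and without naive High replicate 7 they were 3.19% and 2.09%. The median log2 fold change of the list was 0.33, against 0.01 over all genes tested. The whole route from glycolysis to serine had positive values: CG6287, which encodes phosphoglycerate dehydrogenase, was at 0.42 ± 0.196, CG11899, phosphoserine aminotransferase, at 0.81 ± 0.303, and aay, phosphoserine phosphatase, at 1.1 ± 0.281 (log2, SE). aay had 197, 398 and 920 CPM in shocked Mid heads, against 120, 157 and 351 CPM in naive High heads, and 5 of 8 shocked heads were above every naive High head (adjusted p = 0.253, edgeR).

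Among enzymes that use serine or its one-carbon unit, Gnmt, the glycine N-methyltransferase that consumes S-adenosylmethionine, differed by the largest log2 value of the list. It had 106, 335 and 1110 CPM in shocked Mid heads, against 30.4, 75.7 and 182 CPM in naive High heads. The groups overlapped at their edges, and the log2 fold change of 2.12 ± 0.587 did not pass (edgeR adjusted p = 0.362). CG3011, serine hydroxymethyltransferase, was at 0.66 ± 0.324, Sam-S, which makes S-adenosylmethionine, at 0.28 ± 0.133, and Eip55E, cystathionine gamma-lyase, at 0.29 ± 0.134 (log2, SE). The folate enzymes Ts and CG8665 had p-values above 0.05, with log2 values of -0.3 and 0.04. In place of 10, 4 genes of the list were higher at an unadjusted p under 0.05 without shocked Mid replicate 5, 6 without naive High replicate 4 or 6, and 5 without naive High replicate 7. Over all genes the share higher at that p was 3.74%, 3.78%, 4.05% and 3.19% without shocked Mid replicate 5 and naive High replicate 4, 6 and 7.

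Purine synthesis, which takes one-carbon units from folate, had positive values in all 10 genes, with a median log2 fold change of 0.58. None passed the adjusted threshold, 6 were higher at an unadjusted p under 0.05 and 0 were lower. Over all genes tested, 5.35% were higher and 4% lower at that p. The 6 became 4 without shocked Mid replicate 5 or 6, with list medians of 0.39 and 0.41. In those fits 3.74% and 3.66% of all genes were higher. They became 7 without naive High replicate 2 or 5 or shocked Mid replicate 8, where 5.45%, 6.45% and 6.34% of all genes were. ade2, the synthase that forms formylglycinamidine ribotide (now Pfas), had 59.2, 89.6 and 188 CPM in shocked Mid heads, against 37.6, 59.9 and 88.2 CPM in naive High heads. The groups overlapped, with replicates 5 and 6 highest among shocked Mid heads (0.88 ± 0.219, adjusted p = 0.253, edgeR). CG11089, which carries out the last steps to inosine monophosphate, had 88.9, 198 and 419 CPM in shocked Mid heads, against 57.1, 96.0 and 197 CPM in naive High heads (1.06 ± 0.307, adjusted p = 0.378, edgeR). Of its other members, ade5 was at 0.97 ± 0.357, Prat2, one of a pair of amidotransferases for the first step, at 0.61 ± 0.231, and AdSL, adenylosuccinate lyase, at 0.56 ± 0.198, while the other amidotransferase, Prat, was at 0.02 ± 0.197 (log2, SE). ras and bur, enzymes of the guanine branch, were at 0.07 and 0.13.

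The fat body marker level moved with several of these genes in part of the heads. Shocked Mid replicates 5 and 6 had the highest marker sums, at 10700 and 9420 CPM, and the highest Nmdmc, at 167 and 213 CPM, while replicate 1, with a marker sum of 7630 CPM, had 46.3 CPM of Nmdmc. Replicate 4, with one of the lowest shocked Mid marker sums at 3370 CPM, had 126 CPM of Nmdmc and the highest asparagine-synthetase, at 130 CPM. With the log2 marker sum as a covariate, an alternative chosen after seeing the data, Nmdmc passed at a log2 fold change of 1.87 ± 0.325 with an edgeR adjusted p of 0.0138. In that fit, asparagine-synthetase was at 0.58 ± 0.127 (adjusted p = 0.249), Gnmt at 1.17 ± 0.316 (0.481), aay at 0.86 ± 0.253 (0.572) and ade2 at 0.56 ± 0.152 (0.481). The median of the serine and one-carbon list was 0.09 and that of the purine list 0.22 in that fit, each with 4 genes higher at an unadjusted p under 0.05. Over all genes in that fit, 328 were higher and 217 lower at that p.

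**Figure D2:**
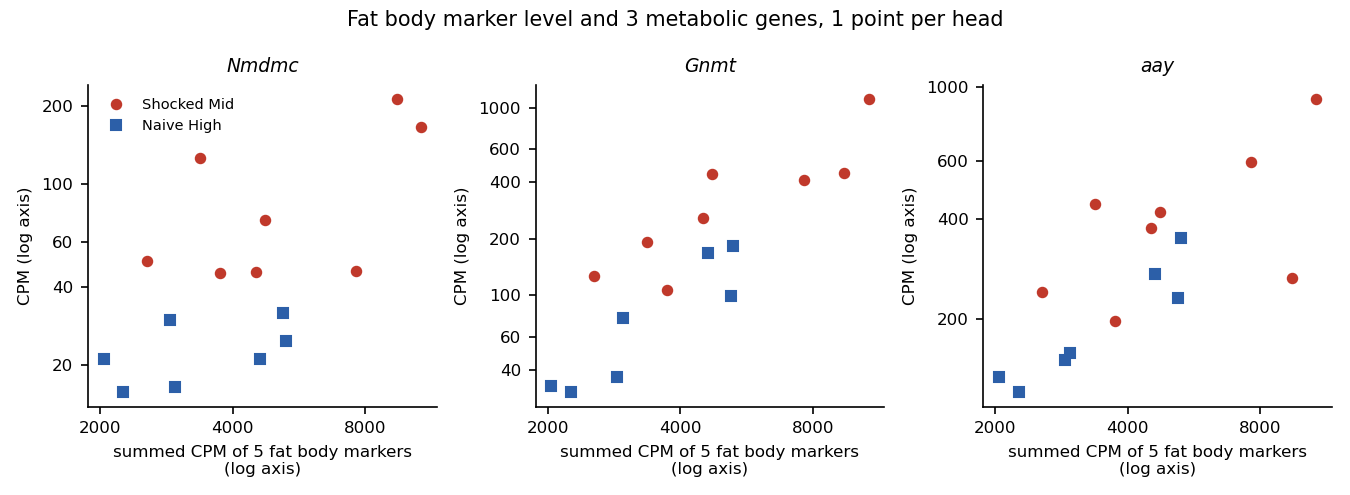
CPM of Nmdmc, Gnmt and aay (vertical, log axis) against the summed CPM of 5 fat body markers (horizontal, log axis) in 8 shocked Mid (circles) and 7 naive High heads (squares), 1 point per head. The groups do not overlap in Nmdmc, whereas they do in Gnmt, in aay and in the marker sum.

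The listed stress response genes did not as a group share the direction of asparagine-synthetase, and the activity of ATF4 was not tested. Of 12 genes of the integrated and unfolded protein stress response, 5 were positive, the median was -0.02, none passed and 1 was higher at an unadjusted p under 0.05. That gene was Hsc70-3, the endoplasmic reticulum chaperone, with 320, 407 and 463 CPM in shocked Mid heads, against 247, 345 and 387 CPM in naive High heads (0.28 ± 0.112). crc itself averaged 1620 ± 118 CPM in shocked Mid heads and 1600 ± 119 CPM in naive High heads (SD, n = 8 and 7). Thor, the 4E-BP translation repressor, was at -0.11 ± 0.189, and trbl, the tribbles pseudokinase, at 0.01 ± 0.146 (log2, SE). The 19 aminoacyl-tRNA synthetases had a median of -0.01, with 9 positive and none at an unadjusted p under 0.05.

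Against naive Mid heads, the same 8 shocked Mid libraries gave 2 genes past the adjusted threshold, 0.0195% of those tested, both higher. They were Nmdmc (1.81 ± 0.323, adjusted p = 0.0216) and asparagine-synthetase (0.74 ± 0.137, adjusted p = 0.0222, edgeR). Naive Mid heads had 13.5, 26.6 and 48.9 CPM of Nmdmc, so that their highest head lay above the 3 lowest shocked Mid heads. Naive Mid heads had 57.5, 67.9 and 87.8 CPM of asparagine-synthetase, below every shocked Mid head. Because both contrasts use the same shocked libraries, their values are set side by side and were not counted as separate support. The difference between the contrasts is naive High against naive Mid, where 0 genes passed in edgeR, 0% of those tested, with 317 at an unadjusted p under 0.05 and 0 called by DESeq2 or limma voom. There, Nmdmc was at -0.24 ± 0.331 and asparagine-synthetase at 0.06 ± 0.141 (log2, SE). The 2 calls against naive Mid did not hold when single libraries were left out, with 0 genes passing without naive Mid replicate 1, 2 or 3 or without shocked Mid replicate 4, 5 or 6.

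The other 8 genes among the 10 smallest p-values all had an edgeR adjusted p of 0.253 against naive High heads and did not pass. jhamt, the juvenile hormone acid methyltransferase, had 2.34, 4.43 and 5.47 CPM in shocked Mid heads, against 0.83, 1.37 and 2.77 CPM in naive High heads (1.39 ± 0.344). CG33110, a fatty acid elongase family member, had 142, 176 and 218 CPM in shocked Mid heads, against 77.7, 94.2 and 159 CPM in naive High heads (0.75 ± 0.183). In both genes 7 of 8 shocked heads were above every naive High head. CG3036 was at 0.64 ± 0.156 and the tetraspanin Tsp42Ef at 0.42 ± 0.102, and CG5778, the Bomanin BomT3, at 0.74 ± 0.184 (log2, SE).

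The genes with lower values were CG14186, the long non-coding RNA CR31451 and SMC5. CG14186 had 247, 275 and 295 CPM in shocked Mid heads, against 294, 318 and 387 CPM in naive High heads (-0.28 ± 0.0634). The groups touched at one head each, and the gene passed in DESeq2 (adjusted p = 0.0428). CR31451 had 188, 200 and 224 CPM in shocked Mid heads, against 214, 262 and 329 CPM in naive High heads (-0.39 ± 0.0944). SMC5, a subunit of a DNA repair complex, had 16.2, 20.4 and 24.5 CPM in shocked Mid heads, against 22.6, 24.9 and 33.9 CPM in naive High heads (-0.41 ± 0.101). SMC5 was at -0.1 ± 0.102 against naive Mid heads, and between naive High and naive Mid heads it differed by 0.32 at an unadjusted p of 0.00479 (edgeR adjusted p = 1).

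**Figure D3:**
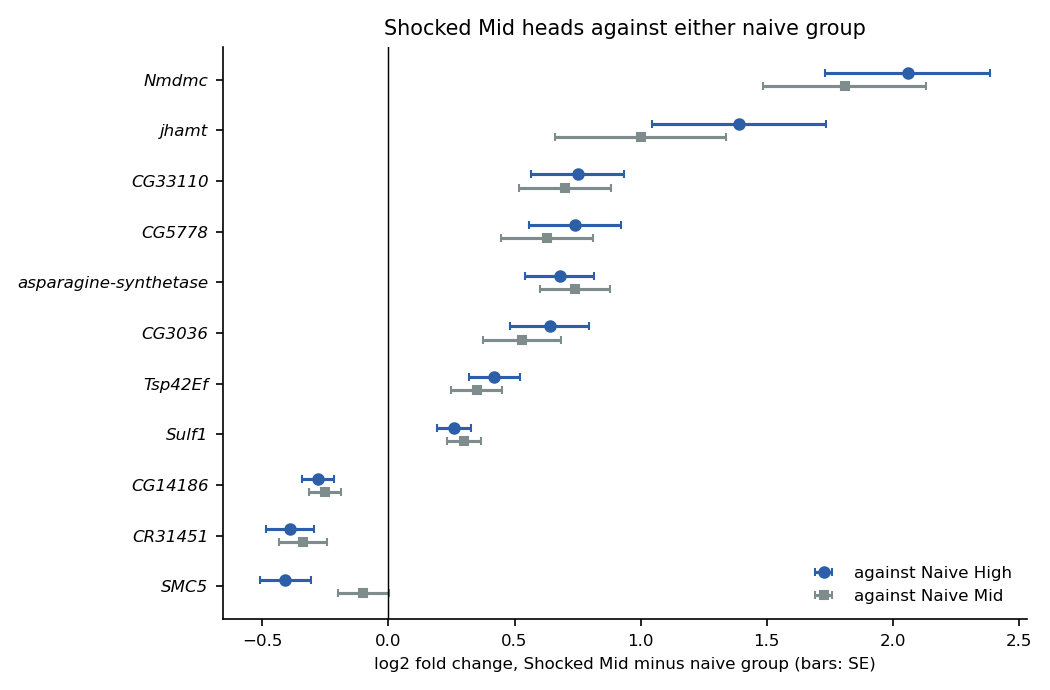
Log2 fold changes with SE of the 10 genes with the smallest p and Sulf1, in shocked Mid heads against naive High heads (circles) and against naive Mid heads (squares). Both contrasts use the same 8 shocked libraries; Nmdmc lies farthest right in both, and SMC5 lies at -0.41 and -0.1.

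Groups that did not overlap were rare: 4 genes, 0.0389% of those tested, had all shocked Mid heads above all naive High heads, and 3 genes, 0.0292%, had them all below. The 4 were Nmdmc, asparagine-synthetase, the mitochondrial gene mt:ND5 and CG31523, a fatty acid elongase family member. CG31523 averaged 197 ± 9.44 CPM in shocked Mid heads and 174 ± 14.2 CPM in naive High heads (SD, n = 8 and 7; log2 0.18, unadjusted p = 0.0927 in edgeR). The 3 lower genes were Trh, CG34449 and CG6967. CG34449, the palmitoyltransferase Zdhhc8, averaged 77.5 ± 3.98 CPM in shocked Mid heads and 85.5 ± 2.69 CPM in naive High heads, and CG6967, the Mov10 helicase, 12.1 ± 1.57 CPM in shocked Mid heads and 17.3 ± 1.61 CPM in naive High heads. CG6967 was at 0.18 ± 0.246 against naive Mid heads, where its level was 10.7 ± 2.58 CPM (SD, n = 7).

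Among secreted immune peptides, the Bomanins and related immune-induced molecules were positive in 18 of 18 tested genes, with a median log2 fold change of 0.8, and 7 were higher at an unadjusted p under 0.05. None passed the adjusted threshold. CG5778 had 43.6, 55.3 and 80 CPM in shocked Mid heads, against 26.0, 35.5 and 46.9 CPM in naive High heads, and 7 of 8 shocked heads were above every naive High head. CG43202 (BomT1) had 4.61, 9.21 and 15.4 CPM in shocked Mid heads, against 1.24, 4.17 and 7.44 CPM in naive High heads (1.32 ± 0.385). IM10 was at 0.99 ± 0.365 and CG5791 (BomBc3) at 0.84 ± 0.297 (log2, SE). With the fat body marker covariate the list median was 0.3, with 4 genes higher at that p. Without naive High replicate 1 there were 12, where 7.49% of all genes were higher at that p, and without shocked Mid replicate 8 there were 11, where 6.34% were. There were 5 without naive High replicate 3, 6 or 7, where 5.03%, 4.05% and 3.19% of all genes were higher. There were also 5 without shocked Mid replicate 5 or 6, where 3.74% and 3.66% were. IM10 and CG33470 are close copies that can divide each other's reads.

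The classical antimicrobial peptides did not share this direction. Of 13 tested, 3 were positive and the median was -1.05, with 1 gene, Def, at an unadjusted p under 0.05. That number was 4 without shocked Mid replicate 1, 2 without shocked Mid replicate 2 and 0 without naive High replicate 2. In these fits 3.95%, 4.49% and 3.28% of all genes were lower at that p. Def had 0, 0.449 and 2.68 CPM in shocked Mid heads, against 0.137, 1.9 and 77.4 CPM in naive High heads (-3.99 ± 1.49, adjusted p = 0.471, edgeR). Its naive High mean rested on replicates 1 and 2, at 28.4 and 77.4 CPM, while the other 5 naive High heads were between 0.137 and 3.91 CPM. Upstream of these peptides, 22 of 25 immune recognition and signalling genes were positive with a median of 0.16, and 4 were higher at that p. They were the fungal recognition protein GNBP3 (0.68 ± 0.262), the serpin nec (0.5 ± 0.197), the Spätzle-processing protease SPE (0.46 ± 0.183) and the NF-κB factor Dif (0.22 ± 0.0997). With the fat body covariate 16 of the 25 were positive at a median of 0.09, and GNBP3 was at 0.25, nec at 0.28, SPE at 0.21 and Dif at 0.09. The median was also 0.09 without naive High replicate 7. Of 10 Turandot and JAK-STAT genes, 9 were positive and none was at that p. Their median of 0.39 was 0.06 without shocked Mid replicate 5, 0.83 without naive High replicate 5 and 0.21 to 0.63 without any other single library, and with the fat body covariate it was 0.07 with 6 positive.

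Mitochondrially encoded transcripts were positive in 12 of 12 tested genes, with a median log2 fold change of 0.37 and 3 higher at an unadjusted p under 0.05; this list was chosen after their values had been seen. mt:ND2 had 25.8, 49.4 and 74.2 CPM in shocked Mid heads, against 10.5, 17.4 and 26.5 CPM in naive High heads (1.29 ± 0.366, adjusted p = 0.369, edgeR). 7 of 8 shocked heads were above every naive High head. mt:ND5 had 813, 914 and 1550 CPM in shocked Mid heads, against 496, 630 and 768 CPM in naive High heads (0.61 ± 0.241, adjusted p = 0.491, edgeR), with no overlap. Both encode subunits of respiratory complex I. Without shocked Mid replicate 1, 1 mitochondrial gene was higher at that p, where 4.9% of all genes were. Without naive High replicate 4 there were 5, where 3.78% of all genes were. Ribosomal protein genes were positive in 82 of 82, with a median of 0.12, a largest value of 0.29 and 2 higher at that p. Of all genes tested, 51.9% were positive and 5.35% were higher at that p. With the fat body covariate 57 of the 82 were positive, at a median of 0.02 and with 0 at that p. The 2 ribosomal protein genes became 16 and 9 without naive High replicate 1 and 5, 1 without naive High replicate 2 or 3 or shocked Mid replicate 2, 5 or 6, and 0 without naive High replicate 4, 6 or 7 or shocked Mid replicate 1 or 4. The share of all genes higher at that p moved too. It was 7.49% and 6.45% without naive High replicate 1 and 5, and 3.78%, 4.05% and 3.19% without naive High replicate 4, 6 and 7. Without shocked Mid replicate 1 and 4 it was 4.9% and 5.24%.

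Neuronal genes had lower values by small amounts. All 19 pan-neuronal genes were negative, with a median of -0.17, and 5 were lower at an unadjusted p under 0.05. That number was 12, 9 and 8 without naive High replicate 1, naive High replicate 5 and shocked Mid replicate 6. It was 2 without naive High replicate 4, 1 without naive High replicate 6 or 7, and 3 without shocked Mid replicate 1, 4 or 8. The share of all genes lower at that p moved too, from 4% to 6.78% and 5.41% without naive High replicate 1 and 5. It was 3.5%, 2.66% and 2.09% without naive High replicate 4, 6 and 7, and 3.82% without shocked Mid replicate 6. Without shocked Mid replicate 1, 4 and 8 it was 3.95%, 3.68% and 4.07%. With the fat body covariate 0 of the 19 pan-neuronal genes were lower at that p, at a median of -0.15. Of 26 genes of monoamine synthesis, transport and reception, 20 were negative with a median of -0.11, and 8 were lower at that p, or 5 without naive High replicate 6. The share of all genes lower at that p was 4%, or 2.66% without naive High replicate 6. Vmat, which loads monoamines into vesicles, had 257, 286 and 345 CPM in shocked Mid heads, against 315, 353 and 400 CPM in naive High heads (-0.26 ± 0.0726, adjusted p = 0.369, edgeR). 6 of 8 shocked heads were below every naive High head.

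Trh, the neuronal tryptophan hydroxylase that starts serotonin synthesis (now Trhn), had 20.6, 25.0 and 28.7 CPM in shocked Mid heads, against 29.4, 31.1 and 32.9 CPM in naive High heads. The groups did not overlap, and the log2 fold change of -0.34 ± 0.102 did not pass (adjusted p = 0.397, edgeR). Ddc, the decarboxylase common to dopamine and serotonin synthesis, was at -0.2 ± 0.0686, and DopEcR, a receptor for dopamine and ecdysteroids, at -0.23 ± 0.085 (log2, SE). Against naive Mid heads Vmat was at -0.34 ± 0.0726, Trh at -0.3 ± 0.102, Ddc at -0.14 ± 0.0686 and DopEcR at -0.17 ± 0.085. With the fat body covariate 7 monoamine genes were lower at an unadjusted p under 0.05, with Vmat at -0.23 ± 0.0748 and Trh at -0.28 ± 0.101. Of 25 neuropeptide genes 22 were negative with a median of -0.1, and of 11 neuronal activity-regulated genes 8 were negative with a median of -0.1 and 1, CG14186, was lower at that p. The 1 became 3 without naive High replicate 1 or shocked Mid replicate 7 and 2 without naive High replicate 3 or 5. In these 4 fits 6.78%, 4.49%, 4.69% and 5.41% of all genes were lower at that p.

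**Figure D4:**
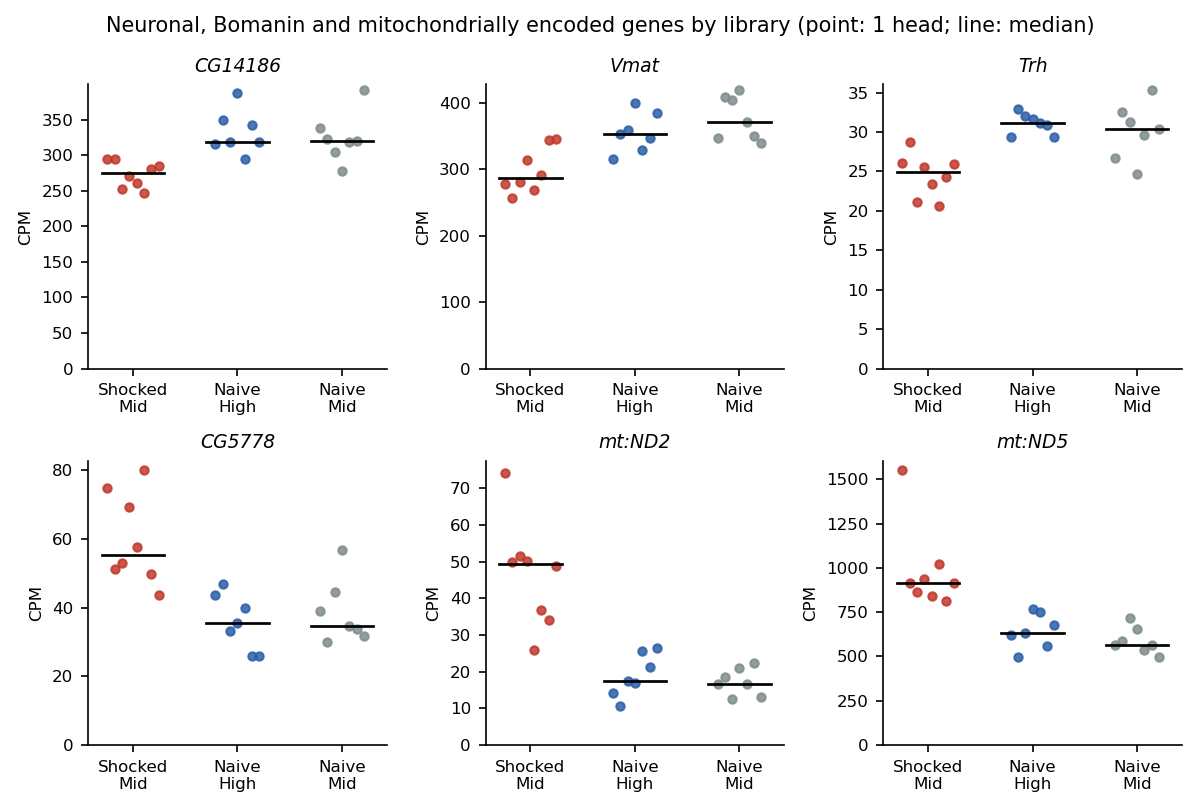
CPM of CG14186, Vmat, Trh, CG5778, mt:ND2 and mt:ND5 in 8 shocked Mid, 7 naive High and 7 naive Mid heads, on linear axes from 0; each point is 1 head and the line is the group median. Trh and mt:ND5 do not overlap between shocked Mid and naive High heads, whereas the other 4 genes do.

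Fat body and lipid storage genes were positive in 13 of 15 tested, with a median of 0.35 and 4 higher at an unadjusted p under 0.05. There was 1 without shocked Mid replicate 5, 2 without shocked Mid replicate 6 or naive High replicate 4, 6 or 7, and 7 without naive High replicate 5. The share of all genes higher at that p was 3.74% and 3.66% without shocked Mid replicate 5 and 6. It was 3.78%, 4.05% and 3.19% without naive High replicate 4, 6 and 7, and 6.45% without naive High replicate 5. Lsp2, a storage protein, had 75.3, 333 and 2370 CPM in shocked Mid heads, against 34.4, 142 and 446 CPM in naive High heads (1.78 ± 0.754, adjusted p = 0.496, edgeR). Rfabg, the precursor of the lipid carrier apolipophorin, had 1730, 2800 and 6220 CPM in shocked Mid heads, against 1060, 1720 and 3580 CPM in naive High heads (0.73 ± 0.338). Both overlapped widely. In the list of starvation, FOXO and sugar metabolism, 17 of 22 genes were positive with a median of 0.14 and 3 higher at that p (5 without naive High replicate 1 or 2), among them CG10924, the phosphoenolpyruvate carboxykinase Pepck2 (1.18 ± 0.351), and the trehalose transporter Tret1-1 (0.54 ± 0.152). Without naive High replicate 1 and 2, 7.49% and 5.45% of all genes were higher at that p. Without shocked Mid replicate 5, 2 genes of this list were higher, where 3.74% of all genes were. With the fat body covariate 2 genes of this list were higher and 1 lower, at a median of 0.05. In that fit 3.19% of all genes were higher and 2.11% lower. Detoxification genes were positive in 21 of 24 with a median of 0.26, with 6 higher and 1 lower at that p. The 6 became 11 without naive High replicate 1, where 7.49% of all genes were higher at that p. They became 3 without naive High replicate 4 or 7 or shocked Mid replicate 6, where 3.78%, 3.19% and 3.66% were. With the fat body covariate 3 were higher, at a median of 0.13. Ugt35b, a glucuronosyltransferase, had 44.5, 68.7 and 69.6 CPM in shocked Mid heads, against 36.1, 39.8 and 51.5 CPM in naive High heads (0.5 ± 0.137, adjusted p = 0.362, edgeR).

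Antennal and olfactory genes were positive in 16 of 17, with a median of 0.69, and 6 were higher at an unadjusted p under 0.05, or 10 without naive High replicate 3, the naive High head with the highest antennal marker sum. The share of all genes higher at that p was 5.35%, or 5.03% without that head. The list count was 4 without naive High replicate 2, 4, 6 or 7. In those fits 5.45%, 3.78%, 4.05% and 3.19% of all genes were higher at that p. It was also 4 without shocked Mid replicate 3, 6, 7 or 8, where 4.9%, 3.66%, 5.76% and 6.34% of all genes were. The antennal marker sums given above were also higher in shocked Mid heads at the median. The list shares at least Ir76b with those markers, so the 2 are not separate measures. The part of unequal antennal RNA was not tested. The odorant-binding protein gene Obp99d was at 1.2 ± 0.396 and the ionotropic receptor genes Ir76b at 0.8 ± 0.242 and Ir64a at 1.68 ± 0.592 (log2, SE). Ir64a was scarcely detected, with 0.671, 1.59 and 3.26 CPM in shocked Mid heads, against 0.173, 0.278 and 2.25 CPM in naive High heads. Against naive Mid heads Ir64a was at 0.73 ± 0.546. The median was 0.09 over 10 glial, 0.04 over 17 muscle, -0.1 over 24 photoreceptor, -0.08 over 13 haemocyte, -0.07 over 8 clock, 0.02 over 12 heat shock and -0.09 over 10 sex-biased genes, with at most 2 genes of any of these lists at an unadjusted p under 0.05 in 1 direction in the fit of all libraries. Leaving out 1 library gave up to 4 lower photoreceptor genes (without naive High replicate 3, where 4.69% of all genes were lower at that p). With the fat body covariate 5 muscle genes were higher, at a median of 0.18, where 3.19% of all genes were higher. Hsp70Bc, which has near-identical copies that can divide its reads, had 0.59, 0.926 and 1.53 CPM in shocked Mid heads, against 0.696, 1.92 and 3.28 CPM in naive High heads (-1.07 ± 0.313, adjusted p = 0.378, edgeR).

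Sulf1, an extracellular sulfatase that trims heparan sulfate, had 86.5, 105 and 113 CPM in shocked Mid heads, against 76.5, 88.4 and 90.5 CPM in naive High heads. 6 of 8 shocked heads were above every naive High head. The log2 fold change of 0.26 ± 0.0661 did not pass (adjusted p = 0.253, edgeR). Its exact two-sided permutation p was 0.00342, unadjusted. Sulf1 was chosen with earlier results of these data known, so that p adds no support. The log2 fold change of Sulf1 was 0.3 ± 0.0662 against naive Mid heads. Of 13 heparan sulfate genes tested, 5 were positive, with a median of -0.08, and the glypican dally was at -0.65 ± 0.229 with naive High replicate 4 at 449 CPM and every other naive High head at 79.0 to 111 CPM.

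**Figure D5:**
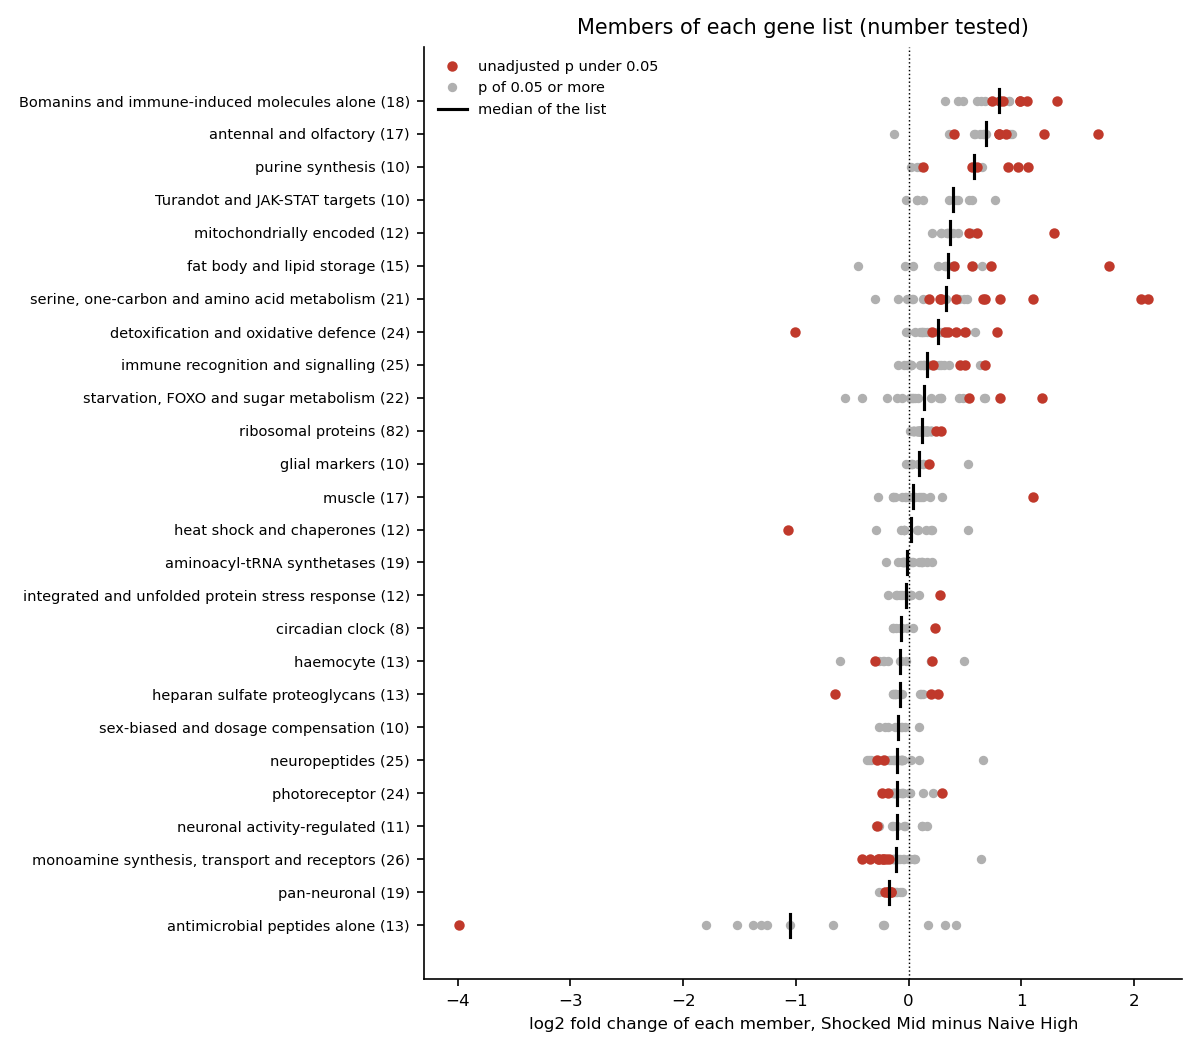
Log2 fold change of every tested member of each gene list in shocked Mid against naive High heads; red points had an unadjusted p under 0.05, grey points did not, and the black bar is the list median. The Bomanins, antennal and purine lists have the highest medians, at 0.8, 0.69 and 0.58, and the antimicrobial peptides the lowest, at -1.05.

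The authors' deposited table lists 23 genes with a q-value under 0.05 for its comparison of naive High with shocked Mid heads, made from a set of libraries that the sources used here do not state, 20 higher in shocked Mid heads, 0.125% of 15947 genes with a value, and 3 lower, 0.0188%. Of the 23 genes, 1 passed and 22 had an unadjusted p under 0.05 in the edgeR fit of the counts, and DESeq2 run on the same 37 libraries called 3 genes. In the authors' deposited table Nmdmc has a log2 fold change of 2.01 with a q-value of 9.22e-05, and asparagine-synthetase has 0.63 with a q-value of 0.000614. The authors' deposited table also lists CG5791, CG5778, CG43202 and IM10 among the Bomanins and related peptides, mt:ND5, mt:ND2 and mt:CoI, Gnmt, and CG1673, the branched-chain aminotransferase, at 1.02 with a q-value of 0.00687. Its 3 lower genes are CG6967, CR31451 and Trh, at -0.59, -0.38 and -0.38.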

How the data were processed

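Single-head RNA-seq counts of 5 groups were analysed. Per the series design text, the authors purified mRNA on oligo dT beads, mapped adaptor-trimmed reads to dm6 with STAR, dropped those that were secondary or had a mapping quality below 8, and counted exon reads with HTSeq-count. Not given in the sources used here are tool versions and whether counting used strand. The deposited table holds raw counts per gene. A second table holds the authors' DESeq2 q-values and log2 fold changes, per the file headers; its sign, positive where shocked Mid was higher, was read from 221 of 221 genes that had the same sign in the counts.

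Of 39 labelled samples 37 had counts. 2 columns matched no sample and were not used. No table row lacked a gene. edgeR 4.0.16 (R 4.3.3, limma 3.58.1) fitted the 5 groups after filterByExpr, which kept 10272 of 17559 genes, and TMM scaling; quasi-likelihood p-values were Benjamini-Hochberg adjusted, SE is the log2 fold change divided by the root of F, and CPM values use TMM-scaled totals. On simulated counts for this contrast (10180 genes), 57.6%, 81.8% and 95.4% of genes changed 1.5, 2 and 4-fold were recovered, with 3 false calls of 157. Alternatives were DESeq2 1.42.0, limma voom, other size factors and filters, covariates, a replicate block, only the groups compared, and leaving out each library.

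Named genes were the 10 smallest p-values, Nmdmc, asparagine-synthetase and Sulf1, genes called against naive Mid heads, and up to 4 members per list with the smallest p, if under 0.05. Other genes, among them those whose groups do not overlap, further list members and those of the authors' table, were chosen after their values were seen. The groups compared, the genes and the 27 lists were chosen with earlier results of these data known; 22 lists were written after the counts were opened. Positions are from Ensembl release 115. Between libraries of a group the chi-square per gene was at least 11, so none was a copy of another. Counting intervals are not given, since replicate spread exceeds counting error. Figures used Python 3.11.15 and matplotlib 3.10.9.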

Additional observations from a re-analysis of the deposited data

Results flagged for a closer look

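Among 134 groups of values tested for a single head far from the rest (67 genes in 2 groups), 7 held one by Dixon's test at 95%, close to the 1 in 20 that chance gives. In shocked Mid heads, Act79B, a muscle actin, reached 194 CPM in replicate 7, with the other heads at 21.2 to 41.4 CPM. Ir76b, an ionotropic receptor, was low in replicate 4 at 5.49 CPM, with the others at 11.9 to 20.2 CPM. Replicate 1 was high in mt:ND5, at 1550 CPM against 813 to 1020 CPM in the others, and in mt:ND4, at 1220 CPM against 572 to 780 CPM. In naive High heads, replicate 4 was high in dally, at 449 CPM against 79.0 to 111 CPM in the others, and in Ir64a, at 2.25 CPM against 0.173 to 0.55 CPM. Cyp6a2, a cytochrome P450, was high in naive High replicate 7, at 6.04 CPM against 1.81 to 2.53 CPM in the others.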

How the results depend on the processing

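Against naive High heads, where 1 gene passed in edgeR, 3 passed with DESeq2, 2 with limma voom and 0 when only the groups compared were fitted (1004 at an unadjusted p under 0.05). With single libraries left out the number ran from 1 to 2, and Nmdmc passed each time (edgeR adjusted p of 0.000998 to 0.0169). Nmdmc kept its direction in all 24 alternatives, with log2 fold changes of 1.78 to 2.17, and lost the call in 1, only the groups compared (2.06, adjusted p = 0.1); the cause was not tested. Against naive Mid heads, where 2 genes passed, the number was 21 with DESeq2, 4 with no filter, 1 with total counts as a covariate, 4 with the fat body covariate and 14 with only the groups compared; it ran from 0 to 6 with single libraries left out. None passed between naive High and naive Mid heads in any alternative. None of 1608 single-gene values over the alternatives changed direction. The 67 genes were named mostly for small p-values in this contrast, and the alternatives reuse the same libraries. A change of direction was therefore unlikely from the outset, and its absence adds no support. Whether replicate numbers mark a pairing was not settled. Deviations of shocked Mid and naive High heads with the same number in their titles correlated from -0.025 to 0.28. 3 of 7 pairs were above 0.1 and 3 of 7 heads correlated best with their own number. Numbers in the library names, which differ from the title numbers in part of the naive High heads, were not examined. With the replicate block, 2 genes passed against naive High heads and 16 against naive Mid heads, and asparagine-synthetase was at 0.73 (adjusted p = 0.018). Against naive High heads, 1278 genes were at an unadjusted p under 0.05 with the block, and 961 in the main edgeR fit. At 6.06 to 11.3 M counts (megacounts) and 8 against 7 heads, the median SE of a log2 fold change was 0.127, and 57.6% of simulated 1.5-fold changes were recovered. That simulation made 157 calls, so its adjusted threshold was easier to pass than with the 1 call here, and recovery in these heads may be lower.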
